A study of Gallus gallus with 8 samples.

Results

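The intermediate filament genes of the lens were followed through fiber cell differentiation in embryonic day 13 chicken lenses that had been microdissected into 4 regions. These were the anterior central epithelium (EC), the epithelium of the equator (EQ), in which differentiation begins, the cortical fibers (FP) and the fibers of the center (FC). Members were taken from the table of FPKM, a transcript level per length of exon and per number of mapped fragments, as every locus named BFSP1, CP49, GLULD1, VIM, NES or SYNM. Of these 6 names, 5 found a locus among the 16906 in the table, and no locus carried the name SYNM. The locus named DMN is described beside the 5, since RefSeq lists DMN as a synonym of SYNM, but it is not counted among them. All regions came from untreated lenses of the same age, with 2 libraries for each region and 100 lenses pooled for each library. Libraries of different regions can share lenses, because a set of lenses was cut into all 4 regions.

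Intermediate filaments are ropelike polymers of coiled-coil proteins that give cells mechanical strength. Vimentin builds the common filament of lens epithelium and young fibers, whereas filensin (BFSP1) and phakinin (BFSP2, listed here as CP49) assemble into the beaded filament, a structure known almost only from lens fiber cells. Mutations of either beaded filament gene cause cataract in humans. Lengsin (LGSN, listed as GLULD1) belongs to the glutamine synthetase family and, from work in mice, binds filament proteins of the lens. Nestin and synemin are large filament proteins that need a partner such as vimentin to form filaments.

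In the authors' table the 2 libraries of a region are merged into 1 FPKM with a 95% interval calculated by cuffdiff, so that this interval serves as the error of each value and no test between libraries could be made. Intervals that overlap do not show that 2 values are equal. Between 15022 and 15794 loci had an FPKM above 0 in a region, with a median of 3.44 to 4.45. The table holds no read counts, so no depth is given beside the values. The 6 genes lay inside their own intervals in all 4 regions, which was not so for 238 to 387 loci of a region. A ratio of 2 or more, or of 0.5 or less, between FPKM values was taken as past the threshold. The paper set this 2-fold cut for transcripts tied to mitochondria, whereas its calls over all genes came from cuffdiff tests. Among 9068 loci at an FPKM of at least 1 throughout, the log2 ratio had a median of 0.27 from EC to EQ, -0.30 from EQ to FP, 0.10 from FP to FC and -0.15 from epithelium to fibers, and the differences between regions are to be read against these shifts.

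The beaded filament transcripts were far lower in the epithelium than in fibers, where they were among the most abundant of the lens. BFSP1, on chromosome 3 from 11362837 to 11382690 of galGal4 with 2 listed start sites, had an FPKM (95% interval) of 77.9 (9.33 to 150.2) for EC and 159 (40.1 to 277) for EQ, as against 12162 (2.51 to 33057) for FP and 14305 (0.563 to 47935) for FC. BFSP1 was thus 2.03-fold higher in EQ than in EC, 76.7-fold higher in FP than in EQ and 1.18-fold higher in FC than in FP. All 4 intervals of BFSP1 overlapped, since the lower bounds of both fiber regions lay below the epithelial values. By FPKM, BFSP1 stood at place 707 of all loci in EC, 426 in EQ and 15 in both FP and FC. In these bulk samples, fewer cells of a type and less RNA per cell cannot be told apart.

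CP49, the gene of phakinin, lies on chromosome 2 from 43197022 to 43212426. Its FPKM was 85.7 (26.8 to 144) for EC and 247 (68.7 to 415) for EQ, as against 12633 (5.45 to 25298) for FP and 20441 (467 to 40277) for FC. The values ascended through all regions, and the FC interval lay above those of EC and EQ, whereas the FP interval overlapped every other. CP49 was 2.88-fold higher in EQ than in EC, 51.2-fold higher in FP than in EQ and 1.62-fold higher in FC than in FP. Its place among all loci was 643 for EC and 307 for EQ, as against 14 for FP and 11 for FC. CP49 was the only 1 of the 6 genes with regions whose intervals did not overlap, and it had them for EC against FC and EQ against FC. Over all loci, intervals did not overlap at 1.07% between EC and EQ, 4.81% between EC and FP, 4.48% between EC and FC, 3.68% between EQ and FP, 3.17% between EQ and FC and 0.0274% between FP and FC.

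GLULD1, the gene of lengsin, lies on chromosome 3 from 85136105 to 85154385. Its FPKM was 11.3 (3.03 to 19.5) for EC and 14.7 (3.04 to 26.3) for EQ, as against 2627 (0.066 to 8619) for FP and 2939 (0 to 14195) for FC. The epithelial regions differed by 1.30-fold and the fiber regions by 1.12-fold, while FP was 179-fold above EQ. The lower bounds in the fibers were near or at 0, so that all 4 intervals overlapped. GLULD1 moved from place 4343 of all loci in EC and 3894 in EQ to 43 in FP and 41 in FC.

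**Figure D1:**
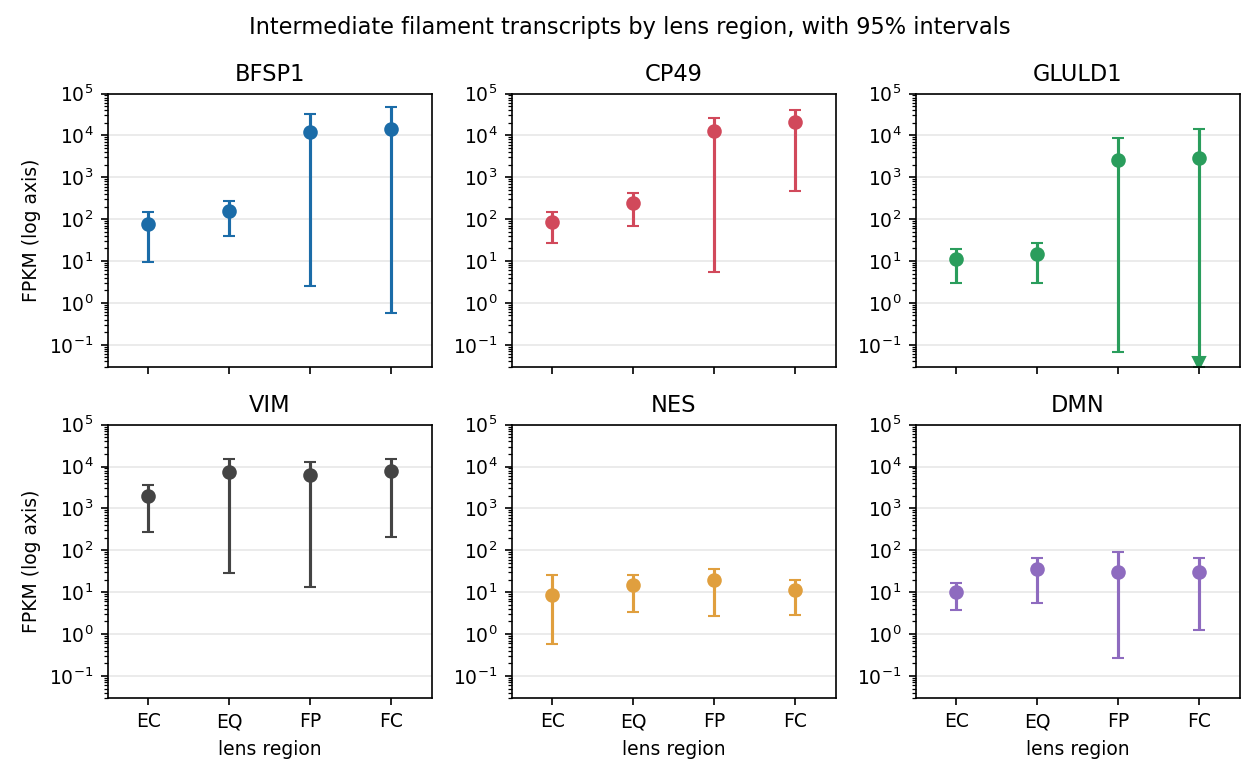
FPKM of the 6 genes (vertical axis, logarithmic) in the 4 lens regions (horizontal axis). Points are the authors' pooled values and bars their 95% intervals, with a triangle where the lower bound is 0. BFSP1, CP49 and GLULD1 step up between EQ and FP, while VIM, NES and DMN stay within 1 order of magnitude.

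Vimentin, by contrast, was abundant in every region. VIM lies on chromosome 2 from 19676790 to 19685053 and had an FPKM of 1955 (280.0 to 3623) for EC and 7550.1 (29.1 to 15234) for EQ, as against 6228 (13.6 to 12840.2) for FP and 7651 (211 to 15089.6) for FC. VIM was 3.86-fold higher in EQ than in EC and differed by less than the 2-fold threshold in the later steps, with FP at 0.825 of EQ, a direction that turned under 3 of 4 other scalings (log2 ratios 0.025 to 0.51), and FC 1.23-fold above FP. EC had the lowest value and the other regions lay close together, but all intervals overlapped. VIM stood at place 52 for EC and 21 for EQ, as against 24 for FP and 22 for FC. The values of FC and EQ differed by far less than the width of their intervals.

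NES, the gene of nestin, for which RefSeq also lists the name paranemin, lies on chromosome 25 from 483305 to 490804. Its FPKM was 8.73 (0.573 to 25.2) for EC and 14.7 (3.30 to 25.8) for EQ, as against 19.1 (2.72 to 34.97) for FP and 11.0 (2.91 to 19.1) for FC. The highest value was in FP, but all intervals overlapped and neighboring regions differed by at most 1.73-fold. DMN, the locus of synemin, lies on chromosome 10 from 16360038 to 16380953. Its FPKM was 10.2 (3.86 to 16.6) for EC and 36.0 (5.57 to 66.6) for EQ, as against 30.4 (0.269 to 89.5) for FP and 29.8 (1.22 to 64.7) for FC. DMN was 3.52-fold higher in EQ than in EC, and the remaining regions differed from each other by less than the threshold. The intervals of DMN overlapped in every pair of regions.

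Set beside all loci, VIM and DMN were among the higher ratios in the step into EQ, and BFSP1, CP49 and GLULD1 in the step into FP. From EC to EQ, 3 of the 5 loci were at least 2-fold higher (BFSP1, CP49 and VIM) and none was 2-fold lower, against 8.35% of 15191 loci higher and 12.6% lower. BFSP1 did not pass under 3 of 4 other scalings (log2 ratios 0.76, 0.85 and 0.92), which leaves 2 of the 5. Under these scalings, in the same order, 5.26%, 6.19% and 7.12% of all loci were at least 2-fold higher. The shares lower were 17.5%, 15.8% and 14.4%. VIM had a larger EQ over EC ratio than 98.2% of loci, DMN than 97.8%, CP49 than 96.4% and BFSP1 than 92.0%. From EQ to FP, 3 of the 5 were at least 2-fold higher (BFSP1, CP49 and GLULD1) and none was lower, against 17.1% of 14701 loci higher and 22.1% lower. The ratio of GLULD1 in this step was the third highest of all loci, that of BFSP1 stood at place 27 and that of CP49 at place 53. VIM, NES and DMN lay near the middle, with ratios above those of 45.8%, 69.1% and 47.2% of loci.

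From FP to FC, none of the 5 passed the threshold, against 4.83% of 14584 loci higher and 6.8% lower. CP49, with a log2 ratio of 0.69, and NES, with -0.79, were the farthest from 0. For the sum of the fibers over the sum of the epithelium, 3 of the 5 were at least 2-fold higher and none was lower, against 14.9% of 14378 loci higher and 21.6% lower. The ratio was 112 for BFSP1, 99.5 for CP49 and 215 for GLULD1. It was 1.46 for VIM, 1.29 for NES and 1.30 for DMN. The median log2 ratio of the 5 loci was 6.64, which is the value of CP49, beside -0.16 over all loci. VIM, at 0.55, and NES, at 0.36, lay far below that median.

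**Figure D2:**
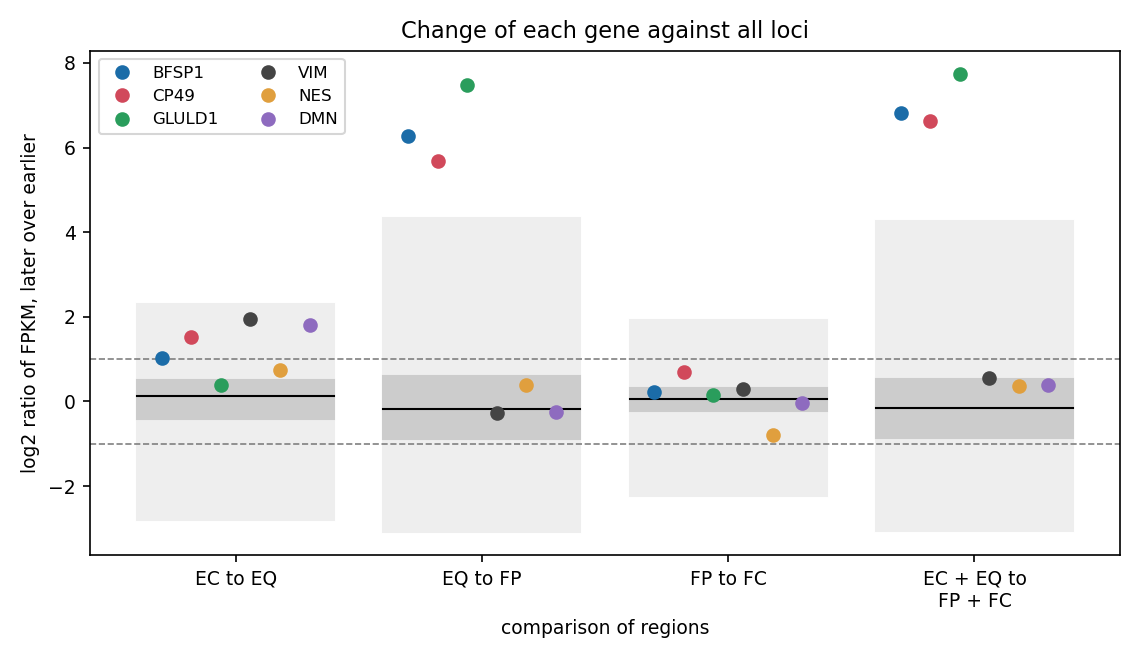
Log2 ratio of the FPKM of the later over the earlier region (vertical axis) for each comparison (horizontal axis). Points are the 6 genes, grey boxes span the middle of all loci (dark, quartiles; light, percentiles 1 to 99) with the median as a line, and dashed lines mark 2-fold. In the step from EQ to FP, BFSP1, CP49 and GLULD1 lie above percentile 99, which is at 4.33.

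Most of the difference between EC and FC in BFSP1, CP49 and GLULD1 lay in the step into FP. Of the log2 ratio of FC over EC, which was 7.52 for BFSP1, 7.90 for CP49 and 8.03 for GLULD1, the step from EQ to FP made up 83.3% for BFSP1, 71.9% for CP49 and 93.2% for GLULD1. The step from EC to EQ made up 13.6%, 19.3% and 4.78% in the same order. As deposited, VIM reached 99.0% of its log2 difference of 1.97 between EC and FC in the first step. That share depends on the scaling. With the same FPKM total, the later steps of VIM had log2 ratios of 0.51 and 0.68, as against -0.28 and 0.30 as deposited. These shares carry the full width of the intervals and were not tested against each other.

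Because FPKM is given per length of transcript, levels can also be compared between the genes. As listed, the FPKM values gave a ratio of CP49 over BFSP1 of 1.10 for EC and 1.56 for EQ, as against 1.04 for FP and 1.43 for FC. The interval bounds allowed ratios from 0.179 to 15.5 in EC and from 0.248 to 10.3 in EQ, and in the fibers they set almost no limit, with 0.000165 to 10083 in FP and 0.00975 to 71521 in FC. With the middles of the intervals in place of the FPKM, the ratio was below 1 in the fibers, at 0.765 in FP and 0.850 in FC. The pair together exceeded GLULD1 by 14.5-fold in EC, 27.6-fold in EQ, 9.44-fold in FP and 11.8-fold in FC. The FPKM of VIM was 11.9 times the sum of BFSP1 and CP49 in EC and 18.6 times in EQ, while in the fibers the sum was higher, by 3.98-fold over VIM in FP and 4.54-fold in FC. By the FPKM values the order of the genes was thus turned around between EQ and FP, although VIM differed by less than 2-fold there. In FP the intervals were 2.51 to 33057 for BFSP1, 5.45 to 25298 for CP49 and 13.6 to 12840 for VIM. They overlapped, so the bounds do not fix that order.

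The summed FPKM of the 6 genes was 2149 for EC and 8021 for EQ, as against 33699.9 for FP and 45378 for FC. VIM made up 91.0% of it in EC and 94.1% in EQ, but 18.5% in FP and 16.9% in FC. BFSP1 and CP49 together made up 7.62%, 5.05%, 73.6% and 76.6% in the same order, and GLULD1 7.80% in FP. NES and DMN each stayed under 1% in all regions. These shares rest on the FPKM alone and carry the full width of the intervals. VIM exceeded NES by 224-fold in EC, 515-fold in EQ, 327-fold in FP and 694-fold in FC, and DMN by 191-fold to 257-fold.

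**Figure D3:**
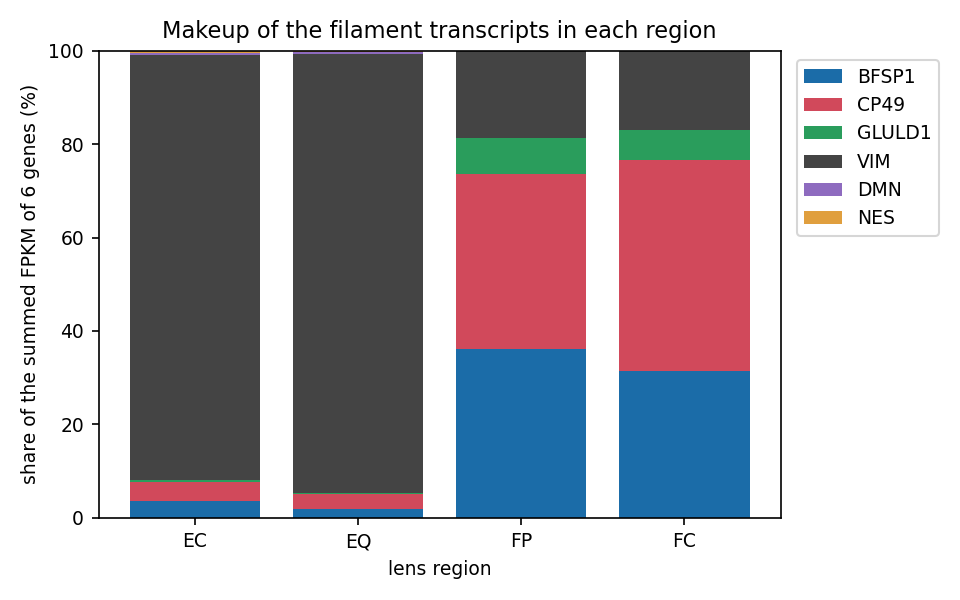
Share of each gene in the summed FPKM of the 6 genes (vertical axis, percent) in each lens region (horizontal axis). VIM fills 94.1% of the bar in EQ, and BFSP1 with CP49 fill 73.6% of the bar in FP.

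The likeness of 2 genes was measured as the root mean square difference between their log2 FPKM profiles over the 4 regions, each centered on its own mean, among 12199 other loci with a gene symbol and an FPKM above 0 in every region. By this measure BFSP1 was the gene most like CP49, at a difference of 0.25, and CP49 was the third most like BFSP1, after CHAC2 (0.22), an enzyme that degrades glutathione, and C12orf69 (0.24). XIRP1 (0.32), which encodes an actin-binding protein, and CRYBB1 (0.32), which encodes a beta-crystallin, followed BFSP1 beside CP49. The FPKM of CRYBB1 was 159 for EC and 694 for EQ, as against 19219 for FP and 37643 for FC. GLULD1 came at place 14 by likeness to BFSP1 and at place 23 to CP49. The genes most like GLULD1 were HOPX (0.19), which encodes a small homeodomain protein, PNP (0.25), the purine nucleoside phosphorylase, and PTPN5 (0.32), a tyrosine phosphatase.

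METTL7A (0.06), SHC2 (0.09) and BEND4 (0.09) were most like VIM, and DMN came at place 12 for VIM with 0.16. Those most like NES were SHE (0.01), SMIM10 (0.06) and AUH (0.07), and those most like DMN were SYT15 (0.02), SESN3 (0.04) and TMCC1 (0.04). The profiles rest on 4 pooled values, and small differences are frequent among genes that vary little.

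Other filament genes reached an FPKM of at most 30.7, the level of KRT19 in EC, which was above those of GLULD1, NES and DMN there. Of 13 keratin loci, which encode the filaments of most epithelia, 4 reached an FPKM of 1 in any region. The locus named KRT19, a name that RefSeq lists as a synonym of KRT24, had 30.7 (0 to 71.6) for EC and 3.56 for EQ, as against 2.32 for FP and 1.17 for FC. KRT9 went the other way, with 0.631, 1.02, 9.38 (0 to 38.3) and 8.33 in the same order. In each of these 2 genes the intervals overlapped and the lower bounds were 0 in all regions, and reads of near-identical keratins can be split between loci. For fibers over epithelium, 1 of the 13 keratin loci was 2-fold higher and 1 lower, against 14.9% and 21.6% of all loci. The median log2 ratio of the keratin loci was -0.51 and turned to 0.42 with the same FPKM total. That of loci at an FPKM of at least 1 throughout went from -0.15 to 0.86 under this scaling.

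Among the neurofilament-type genes, NEFL, the light chain of the neuronal filament, had an FPKM of 2.20 (0.675 to 3.67) for EC and 0.794 (0.150 to 1.42) for EQ, as against 21.3 (7.57 to 34.9) for FP and 29.2 (10.4 to 47.9) for FC. It was 16.8-fold higher in fibers than in epithelium, and the intervals of both fiber regions lay above those of both epithelial regions. NEFM, the medium chain, had 4.74 (1.69 to 7.5998) for EC and 0.428 (0.0993 to 0.745) for EQ, as against 1.67 for FP and 1.60 for FC, and its EQ interval lay below that of EC. NEFH stayed under 1 in all regions. DES, which encodes desmin of muscle, had 1.04 for EC and 0.938 for EQ, as against 5.72 (0 to 18.0) for FP and 6.23 for FC, with overlapping intervals. The summed FPKM of the 5 other retinal and neuronal markers was 14.8 for EC and 8.19 for EQ, as against 9.19 for FP and 12.3 for FC, and that of the 6 other muscle markers was 15.0, 9.69, 15.1 and 12.8. Both sums were higher in the fiber regions than in EQ, and their part in the levels of NEFL, NEFM and DES was not tested.

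The lamins, the intermediate filaments of the nuclear envelope, were lower in fibers. As deposited, all 3 lamin loci passed the 2-fold threshold in that direction, against the 21.6% of all loci given above. The ratios were 3.63-fold for LMNB1, 3.15-fold for LMNB2 and 2.20-fold for LMNA. With the same FPKM total none of the 3 passed, against 5.73% of all loci lower. The median log2 ratio of the lamin loci was then -0.65 instead of -1.65. That of loci at an FPKM of at least 1 throughout moved from -0.15 to 0.86. LMNB1 had an FPKM of 16.5 (3.35 to 30.1) for EC and 8.15 for EQ, as against 3.06 for FP and 3.74 for FC. LMNA was highest in EQ, at 5.86 (2.31 to 9.41), and lay between 1.71 and 2.06 elsewhere. The intervals of the lamin genes overlapped in all pairs of regions.

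Genes of proteins that link filaments to membranes and junctions were mixed. Of 14 loci found under 21 names of such genes, some of them synonyms, 5 were 2-fold higher in fibers and 4 lower, against 14.9% and 21.6% of all loci. Their median log2 ratio was 0.14. The 4 lower loci include PRX (log2 ratio -1.73), which the paper describes as a paired mesoderm homeobox protein. The counts and the median thus include a gene that is no linker. With the same FPKM total, 7 of the 14 loci were higher and none lower, against 43.7% and 5.73% of all loci. PPL, which encodes periplakin, a plakin found at the membrane of lens fibers, was the highest in fibers, with an FPKM of 16.2 (3.66 to 34.5) for EC and 19.6 (7.36 to 31.8) for EQ, as against 424 (22.9 to 824) for FP and 339 (17.4 to 661) for FC. It was 21.4-fold higher in fibers than in epithelium, and the intervals overlapped. The smallest ratio was that of PKP2, a desmosomal plakophilin, at 3.59-fold lower in fibers. Its levels were low, with an FPKM of 1.65 for EC and 0.647 for EQ, as against 0.334 for FP and 0.306 for FC. The intervals of PKP2 overlapped in all pairs of regions. PKP4 went from 13.5 in EC and 47.0 in EQ to 134 in FP and 162 in FC, and AHNAK had 12.0 in EC and 12.5 in EQ but 47.4 in FP and 44.3 in FC.

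Small heat shock proteins bind intermediate filaments as chaperones. CRYAA and CRYAB, the alpha-crystallins, did not pass the threshold for fibers over epithelium, with log2 ratios of -0.26 and 0.13 that became 0.76 and 1.12 with the same FPKM total. HSPB8 did, with 1.58 for EC and 1.253 for EQ, as against 48.6 (8.92 to 88.4) for FP and 43.3 (2.97 to 141) for FC, and both fiber intervals lay above the epithelial ones. HSPB2 was 6.67-fold lower in fibers, with 6.88 (2.83 to 10.9) in EC and 0.927 (0.257 to 1.54) in FP. Of the 6 loci above 0 in all regions, 3 were 2-fold higher and 1 lower, against 14.9% and 21.6% of all loci. With the same FPKM total, 4 of the 6 were higher and 1 lower, against 43.7% and 5.73% of all loci. That scaling moved the median log2 ratio of loci at an FPKM of at least 1 throughout from -0.15 to 0.86.

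**Figure D4:**
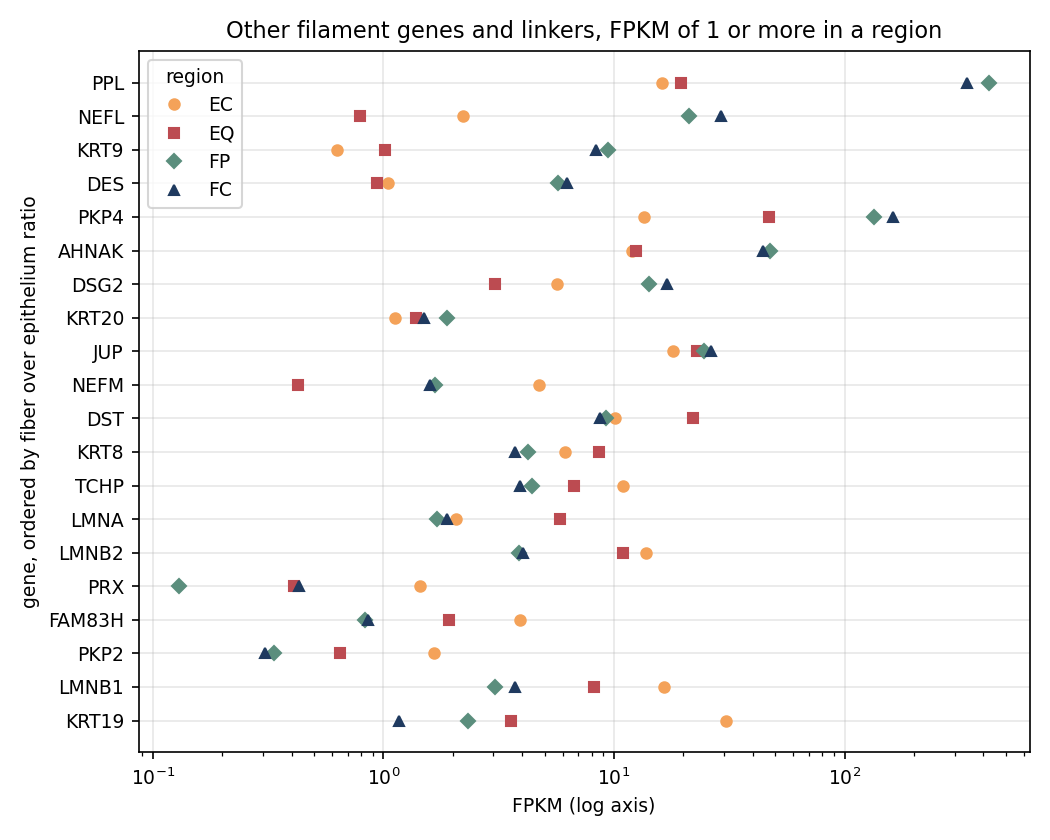
FPKM (horizontal axis, logarithmic) of keratins, desmin, neurofilament genes, lamins and linkers that reached an FPKM of 1 in some region (vertical axis, ordered by the ratio of fibers over epithelium). Symbols are the 4 regions. PRX is shown among the linkers by its name only. PPL and NEFL stand at the top with ratios of 21.4 and 16.8, and KRT19 at the bottom.

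Genes known from lens fibers and epithelium, listed with earlier results of these data known and so no independent check of the labels, were compared in the same way. The lists held 31 fiber names and 14 epithelial names, some of them synonyms. Names with no locus dropped out, among them PAX6, SIX3, MIP and LIM2. Of 22 loci of genes known from lens fibers, 17 were 2-fold higher in fibers and 1 lower, and of 12 epithelial loci none was higher and 7 were lower, against 14.9% higher and 21.6% lower of all loci. With the same FPKM total, 19 of the fiber loci were higher and none lower, and of the epithelial loci 1 was higher and 3 were lower. The shares of all loci were then 43.7% higher and 5.73% lower. The fiber genes ranged from HOPX, 177-fold higher in fibers, to DNASE2B, a nuclease of fiber cells, which was 2.40-fold lower. DNASE2B had an FPKM of at most 1.59, and the intervals of HOPX and of DNASE2B overlapped in all pairs of regions. Among loci that reached an FPKM of 1, the epithelial genes ranged from CDH2 to TGFB2, which was 9.79-fold lower. CDH2 had a log2 ratio of -0.32 that turned to 0.68 with the same FPKM total. FOXE3, also on the epithelial list, went the other way with a log2 ratio of 0.97, at an FPKM of at most 0.735. Markers of red blood cells summed to an FPKM of 759 for EC and 128 for EQ, as against 164 for FP and 248 for FC, with 2 of the 6 loci at 0 in EC. Their sum was highest in the region where all 6 filament genes were lowest, and its part in those ratios was not tested. Markers of pigment cells summed to 5.78 to 8.49, those of mesenchyme and vessels to 9.18 to 16.4 and those of macrophages to 7.21 to 26.1 in a region, and no locus of these lists was at 0. Among the mesenchyme markers DCN was 6.52-fold higher in fibers and COL1A2 4.23-fold lower. VIM is also expressed by these cell types, and their part in its level was not tested.

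The ratios depend on how the regions are scaled to each other. The FPKM summed over all loci to 5979420 for EC and 5908470 for EQ, as against 3429210 for FP and 2624540 for FC, and the 3 highest loci made up 60.0% to 81.1% of it. Under 4 other scalings and 2 values added to the FPKM, the log2 ratio of fibers over epithelium lay between 6.79 and 7.82 for BFSP1, 6.63 and 7.68 for CP49 and 7.64 and 8.75 for GLULD1. That of VIM lay between 0.55 and 1.56, and it passed the threshold when all regions were set to the same FPKM total. With that scaling 43.7% of all loci were 2-fold higher in fibers. The increase of BFSP1 from EC to EQ passed 2-fold as deposited but had log2 ratios of 0.76 to 0.92 under 3 of the scalings. For VIM from EQ to FP the direction itself turned, from -0.28 as deposited to 0.025 with median ratio scaling, 0.069 with the same total without the 3 highest loci and 0.51 with the same total. DMN turned under the same scalings, from -0.24 to 0.058, 0.10 and 0.54.

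**Figure D5:**
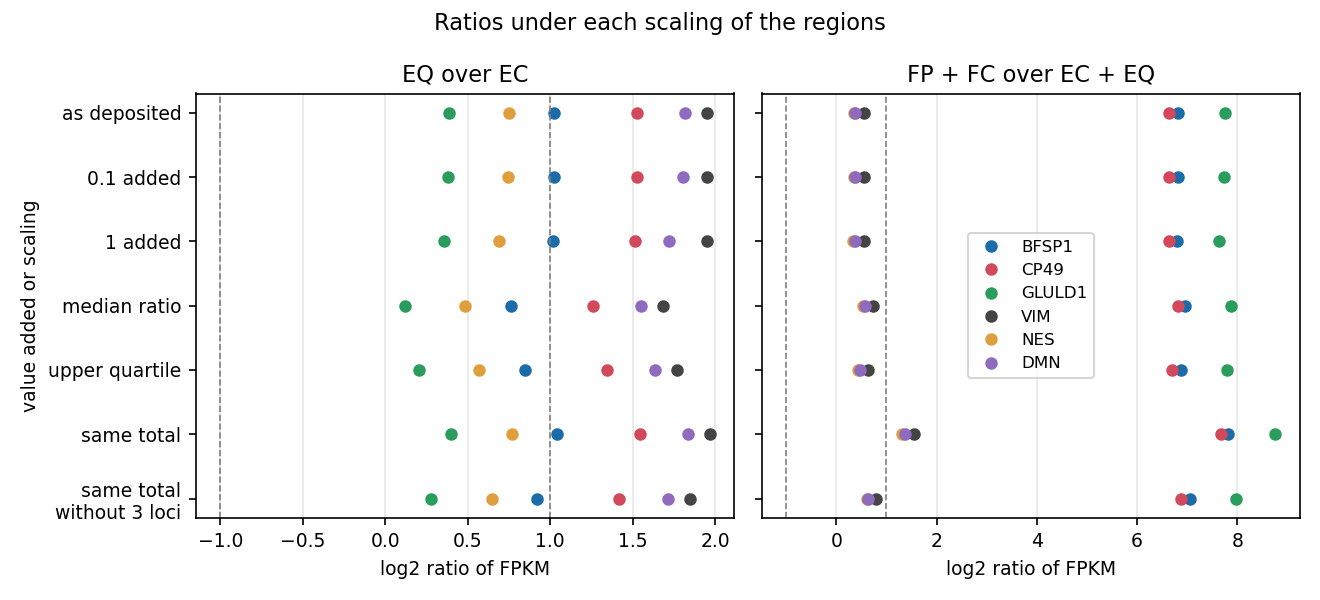
Log2 ratio of the FPKM (horizontal axis) of the 6 genes for EQ over EC and for fibers over epithelium under each value added or scaling (vertical axis). Dashed lines mark 2-fold. BFSP1, CP49 and GLULD1 stay above a log2 ratio of 6.6 for fibers over epithelium. In the same comparison VIM, NES and DMN cross the line with the same FPKM total, where 43.7% of all loci are 2-fold higher.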

How the data were processed

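RNA of microdissected lens regions was sequenced by the authors from directional mRNA libraries as short single reads, aligned with TopHat to the Ensembl release of galGal4, and quantified with Cufflinks and Cuffdiff 2.1.1 (per the labels). Per the paper, the delta-crystallin gene ASL1 dropped out of that run because it went past the default limit of Cufflinks on mapped reads. ASL2 has a value in every region. The places among all loci are those of this run. The deposited table gives 1 FPKM value a region, merged from its 2 libraries by Cuffdiff after scaling, with the bounds of its interval. The other deposited file holds the authors' own fold changes, p-values and q-values, which were not used. Values per library were not analysed here, so no standard deviation, test or leave-one-out fit was made (0 columns of other samples were left out). Log2 ratios were computed with no value added, and loci were counted over all those above 0 in the regions compared. Counting and ranking steps were tested on simulated data. Members and gene lists were chosen with earlier results of these data known. Beside the 6 genes, the text names the 3 genes most like each and, for each list of other filament, linker, chaperone, fiber and epithelial genes, the ends of the ratio of fibers over epithelium among loci that reached an FPKM of 1. Cell type markers are given as sums. The alpha-crystallins, LMNB2, NEFH, PKP4, AHNAK, PRX, FOXE3, DCN and COL1A2 were named after their values were seen. Names were matched to RefSeq (GRCg7b) for synonyms only. Python 3.11.15, numpy 2.4.6, pandas 2.3.3 and matplotlib 3.10.9 were used.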

Additional observations from a re-analysis of the deposited data

How the results depend on the processing

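BFSP1, CP49 and GLULD1 kept their direction and stayed past 2-fold from EQ to FP and from epithelium to fibers under all 6 alternatives of scaling or value added. VIM and DMN, which did not pass from EQ to FP, turned direction there under 3 of the 4 scalings. From EC to EQ, BFSP1 was no longer past 2-fold with the median ratio scaling (log2 ratio 0.76), upper quartile scaling (0.85) and the same total without the 3 highest loci (0.92). With the same FPKM total, NES passed from EQ to FP (1.16), CP49 from FP to FC (1.08), and VIM (1.56), NES (1.31) and DMN (1.37) from epithelium to fibers. Under that scaling 36.3% of all loci were 2-fold higher from EQ to FP, 11.1% from FP to FC and 43.7% from epithelium to fibers. Counts of loci past 2-fold moved from 3182 (EC to EQ), 5773 (EQ to FP), 1695 (FP to FC) and 5240 (epithelium to fibers), in that order, to 6304, 8818, 3692 and 8250 at a threshold of 1.5, to 753, 1783, 340 and 1623 at 4, to 1406, 3348, 301 and 3082 with an FPKM of 1 or more, and to 1278, 3235, 233 and 3249 with 1 added. Higher loci made up 39.9%, 43.7%, 41.5% and 40.8% of them as deposited, and 23.1%, 60.5%, 33.5% and 47.8% with median ratio scaling, 28.1%, 53.8%, 32.6% and 42.9% with the upper quartile, 41.1%, 82.9%, 73.6% and 88.4% with the same total and 33.1%, 62.9%, 31.2% and 54.2% without the 3 highest loci. Taking the middle of the intervals, the ratio of CP49 over BFSP1 was 1.07, 1.52, 0.765 and 0.850 in EC, EQ, FP and FC. Ranked by correlation instead, the 3 genes most like BFSP1, CP49, GLULD1 and DMN shared none with those given, and those of VIM and NES shared 1. The cause was not tested, save that a higher threshold, a minimum or a value added leaves fewer loci past 2-fold by construction. No paired analysis was possible because the deposited values are pooled over the libraries, and for the same reason no library was left out.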

Other observations

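In fibers the 95% intervals of BFSP1 and GLULD1 were wider than the median of loci at their level, whereas that of CP49 was not in FC. The width of the interval divided by the FPKM was 3.35 for BFSP1 in FC, beside a median of 1.94 over 14 loci within 2-fold of that FPKM, and 4.83 for GLULD1, beside 1.62 over 54 loci. In FP it was 2.72 for BFSP1, beside 1.85, 3.28 for GLULD1, beside 1.57, and 2.94 for DMN, beside 1.46. For CP49 in FC it was 1.95, beside 1.99. In EC, NES stood apart with 2.82 beside 1.29 over 4637 loci.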
